A study of Mus musculus with 6 samples.

Results

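The genes described here place the forebrain, the midbrain and the isthmus, the narrow band between midbrain and hindbrain, along the axis of the early neural tube. They are Otx2, Six3 and Lhx2, which mark the anterior side, En1, En2, Wnt1 and Pax2, which mark the midbrain and isthmus, and Gbx2, Fgf8 and Fgf17, which mark the isthmus and the tissue behind it. Members were all probe sets annotated to 1 of these 10 genes alone, and 12 of 45037 probe sets met this rule. They covered 9 of the 10 genes, out of 18193 genes named on the array, and Pax2 was not analysed here. The genes were selected on their array signals, which had been seen to differ between the experiments of the study, so differences between experiments are given as a description and carry no test.

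The study used the Hoxb4i line, 1 mouse embryonic stem cell line in which a tet-on cassette drives HOXB4, a homeodomain transcription factor, when doxycycline is added. In the doxycycline group, embryoid bodies, the cell aggregates in which such cells differentiate, received doxycycline at 2 µg/ml on day 4 and were harvested 48 hours later. In the uninduced group, embryoid bodies of the same line were harvested at the same age, day 6, without induction. Both groups were seeded at 3500 cells/ml in medium with serum, and each holds 3 arrays, labelled replica A, B and C. The 1 doxycycline array and the 1 uninduced array of a letter are together called an experiment here. Both groups carry the cassette. Doxycycline on cells without it was not analysed here, so HOXB4 and doxycycline itself cannot be told apart. Each array measured whole embryoid bodies, so a lower signal from fewer cells of a type and one from less RNA per cell cannot be told apart.

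In the mouse embryo, Otx2 is required for forebrain and midbrain and Gbx2 for the anterior hindbrain, and the border between their expression domains sets where the isthmus forms. Fgf8, secreted at the isthmus, and Wnt1, secreted just anterior to it, keep En1 and En2 expressed on both sides. Six3 and Lhx2 act further forward, in the forebrain and the eye field, and Six3 is known to repress Wnt1 there. Many isthmus genes are FGF targets, among them the feedback inhibitors of the Sprouty family.

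Start-site sequences were found for 7 of the 10 genes in RefSeq promoter windows of assembly GRCm38.p6, which run from 250 bases before to 50 bases after a transcript start. En2 on chromosome 5, Fgf8 on chromosome 19 and Fgf17 on chromosome 14 were not matched. The windows below belong to the genes whose signals varied most clearly together or apart, and each was searched on both strands for TAATCC, the core bound by OTX proteins, for TAATTA, the core bound by many homeodomain proteins including the Engrailed and LHX proteins, and for TGATNNAT, a core of joint HOX and PBX sites. Capitals mark matches, and a match on the other strand reads as its reverse complement. The first is the third of 4 Otx2 windows, the one with the most matches, at chr14:48665060-48665359 on the minus strand. Gbx2 lies at chr1:89931127-89931426 on the minus strand, En1 at chr1:120602237-120602536 on the plus strand, Wnt1 at chr15:98789607-98789906 on the plus strand and Six3 at chr17:85620584-85620883 on the plus strand.
Otx2: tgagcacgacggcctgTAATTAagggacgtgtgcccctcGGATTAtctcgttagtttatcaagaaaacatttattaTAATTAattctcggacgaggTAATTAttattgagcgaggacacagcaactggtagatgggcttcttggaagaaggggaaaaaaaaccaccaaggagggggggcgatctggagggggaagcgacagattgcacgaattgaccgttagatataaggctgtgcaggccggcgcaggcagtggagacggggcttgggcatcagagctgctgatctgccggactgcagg
Gbx2: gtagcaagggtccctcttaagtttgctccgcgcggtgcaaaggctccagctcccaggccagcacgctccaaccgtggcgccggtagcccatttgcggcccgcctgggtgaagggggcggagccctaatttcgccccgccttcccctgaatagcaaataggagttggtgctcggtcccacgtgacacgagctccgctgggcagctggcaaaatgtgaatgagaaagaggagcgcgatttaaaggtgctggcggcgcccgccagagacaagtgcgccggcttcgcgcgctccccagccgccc
En1: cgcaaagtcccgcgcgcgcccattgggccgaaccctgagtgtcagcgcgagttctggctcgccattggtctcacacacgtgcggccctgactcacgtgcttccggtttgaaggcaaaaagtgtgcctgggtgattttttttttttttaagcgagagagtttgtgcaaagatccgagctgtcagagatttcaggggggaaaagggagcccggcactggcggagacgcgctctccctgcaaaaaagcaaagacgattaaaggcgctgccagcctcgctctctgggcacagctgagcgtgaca
Wnt1: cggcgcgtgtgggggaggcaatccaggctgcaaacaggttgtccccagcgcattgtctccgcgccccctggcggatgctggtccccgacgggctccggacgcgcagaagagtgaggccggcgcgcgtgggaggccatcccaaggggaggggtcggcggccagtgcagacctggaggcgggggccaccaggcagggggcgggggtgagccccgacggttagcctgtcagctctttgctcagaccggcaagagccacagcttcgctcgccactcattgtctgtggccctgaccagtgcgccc
Six3: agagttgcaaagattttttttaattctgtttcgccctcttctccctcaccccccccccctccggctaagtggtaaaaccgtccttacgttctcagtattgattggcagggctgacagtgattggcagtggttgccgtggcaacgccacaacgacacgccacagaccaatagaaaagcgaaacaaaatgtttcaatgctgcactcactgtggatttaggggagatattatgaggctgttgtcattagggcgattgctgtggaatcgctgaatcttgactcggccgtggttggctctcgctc

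The third Otx2 window held 1 match to the OTX core, on the other strand, and 3 to the homeodomain core, and the first Otx2 window held 1 more of the homeodomain core. Of all 32851 windows of this length, 7.06% held the OTX core, 5.29% the homeodomain core and 8.85% the HOX and PBX core. No window of Gbx2, En1, Wnt1, Six3, Lhx2 or Pax2 held any of the 3. The GC content was 51.0% in the Otx2 window shown, 64.7% for Gbx2, 57.0% for En1, 70.7% for Wnt1 and 50.0% for Six3, against a median of 52.7% over all windows. The matches describe letters in these windows only.

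The values are MAS5 signals, linear intensities that the authors scaled to 1 target on every array. They come without detection calls, so low signals have no stated background. Array medians ranged between 92.0 and 108.6. The uninduced array of A stood apart in its Actb control probe sets, whose 3' over 5' ratio was 2.88 there and 1.26 to 1.48 elsewhere. The same ratio for Gapdh was also highest on that array, at 1.082 against 0.834 to 0.903 elsewhere. Hoxb4 was higher with doxycycline in 3 of 3 experiments on both of its probe sets, where 12.8% of tested probe sets were. On the log2 scale the differences were 1.05 and 0.68 in A and 0.55 and 1.87 in C. In B they were only 0.1 and 0.04, so B showed little or no rise in these signals. Whether either probe set detects the transcript of the cassette was not tested. The limma adjusted p was 1 for each probe set, and induction within a single experiment was not tested. Differences below are of log2(signal + 18.8), an offset that shrinks the differences of dim probe sets, and the brightest probe set stands for a gene with several. The letters A, B and C are the replica letters of the labels, which give no other difference between the experiments.

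**Figure D1:**
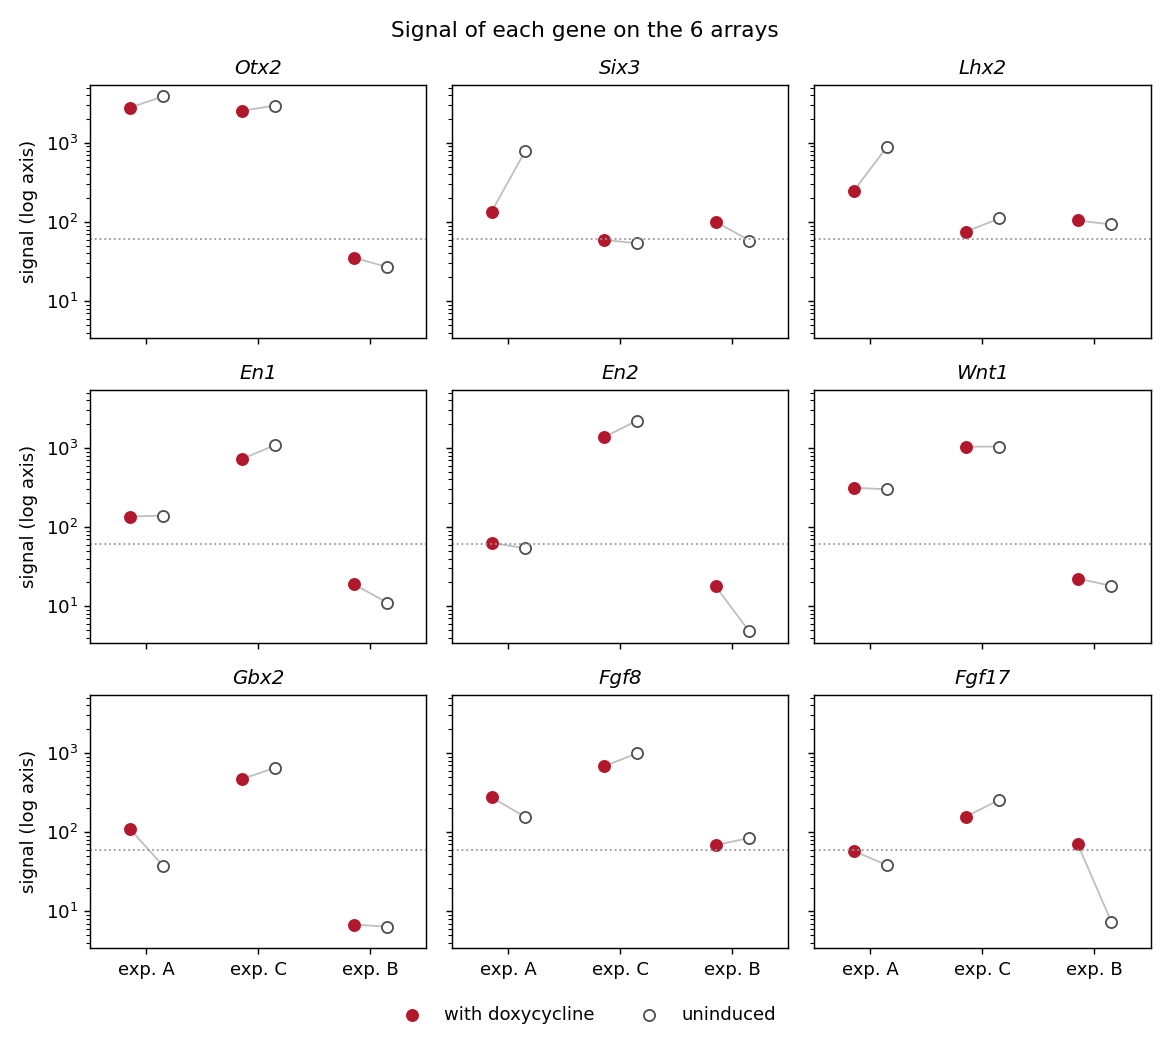
Signal of the 9 genes on the 6 arrays (vertical log axis, MAS5 signal) by experiment A, C and B on the horizontal axis. Filled points are doxycycline arrays, open points are uninduced arrays, grey lines join the 2 arrays of an experiment, and the dotted line marks the mean signal of 60.5 under which a probe set was not tested. Otx2 was high in A and C, Six3 and Lhx2 were highest on the uninduced array of A, and the other 6 genes were highest in C.

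Among the anterior genes, Otx2 (probe set 1425926_a_at), a homeodomain factor of forebrain and midbrain, showed the largest A minus B difference of the 9 genes. Its signal was 2779.5 with doxycycline and 3861.0 uninduced in A, 2541.5 with doxycycline and 2963.6 uninduced in C, and 35.5 with doxycycline and 26.9 uninduced in B. All 4 arrays of A and C thus stood far above both arrays of B, by 6.05 (A minus B) and 5.79 (C minus B) on the log2 scale, while A and C overlapped.

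Six3 (1427523_at), a homeodomain repressor of the anterior forebrain, was high on 1 array. It had 135.3 with doxycycline and 783.6 uninduced in A, 59.4 with doxycycline and 53.7 uninduced in C, and 101.0 with doxycycline and 58.3 uninduced in B. Both arrays of A lay above all others, with a difference of 2.22 for A minus C and 1.87 for A minus B. The uninduced array of A, whose Actb ratio was 2.88, held most of it. Over the doxycycline arrays alone the differences were 0.98 and 0.36, against 3.47 and 3.38 over the uninduced arrays alone.

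The other 2 Six3 probe sets had means of 12.9 and 4.2 and were not tested. On 1426638_at the signals with doxycycline were 9.7 in A, 8.8 in C and 19.3 in B, and uninduced they were 7.3 in A, 25.9 in C and 6.3 in B. On 1426637_a_at they lay between 1.0 and 7.6 on all arrays. Neither was highest by a similar margin on the uninduced array of A. The annotation places Six3os1, a transcript of the opposite strand, over Six3, and which transcript each probe set detects was not tested.

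Lhx2 (1418317_at), a LIM homeodomain factor of the forebrain and eye field, followed Six3. Its signal was 245.0 with doxycycline and 894.2 uninduced in A, 75.1 with doxycycline and 110.7 uninduced in C, and 104.5 with doxycycline and 93.0 uninduced in B. Both arrays of A were above the rest, by 2.15 (A minus C) and 2.06 (A minus B). Here the doxycycline arrays alone also kept a gap above 1, at 1.49 and 1.10, against 2.82 and 3.03 over the uninduced arrays. C and B did not separate, with a C minus B difference of -0.09 for Lhx2 and -0.35 for Six3.

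The midbrain and isthmus factors had another order, with C first, A second and B last. En2 (1418868_at), an Engrailed homeodomain factor, spanned the widest range of the 9 genes. It had 62.9 with doxycycline and 54.3 uninduced in A, 1360.1 with doxycycline and 2224.6 uninduced in C, and 17.8 with doxycycline and 4.8 uninduced in B. The A minus C difference of -4.51 was the most negative of the 9, and the signals of A were close to the 60.5 under which a mean was not tested.

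En1 (1418618_at), the paralog that is needed for midbrain and anterior hindbrain to form, had the same order. The signals were 136.0 with doxycycline and 139.8 uninduced in A, 722.7 with doxycycline and 1086.4 uninduced in C, and 19.0 with doxycycline and 11.1 uninduced in B. No arrays of different experiments overlapped, and the differences were -2.53 (A minus C), 2.22 (A minus B) and 4.75 (C minus B).

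Wnt1 (1425377_at), the secreted signal of the posterior midbrain, was the steadiest within an experiment. It had 314.6 with doxycycline and 300.2 uninduced in A, 1037.0 with doxycycline and 1041.9 uninduced in C, and 22.4 with doxycycline and 18.1 uninduced in B. The 3 experiments formed separate levels, with differences of -1.70 (A minus C), 3.06 (A minus B) and 4.76 (C minus B). The paired arrays differed by at most 0.16 on the log2 scale.

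Gbx2 (1420337_at) is the homeodomain factor on the hindbrain side of the border. Its signal was 111.4 with doxycycline and 37.6 uninduced in A, 467.7 with doxycycline and 654.1 uninduced in C, and 6.8 with doxycycline and 6.4 uninduced in B. The order was that of the Engrailed genes, at -2.74 (A minus C), 1.75 (A minus B) and 4.49 (C minus B). Otx2 and Gbx2, whose domains meet at the isthmus in the embryo, thus kept different orders: the A minus C difference was -2.74 for Gbx2 and 0.25 for Otx2.

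Fgf8 (1451882_a_at), the signal of the isthmic organizer, had 275.8 with doxycycline and 156.5 uninduced in A, 678.3 with doxycycline and 996.1 uninduced in C, and 68.7 with doxycycline and 84.6 uninduced in B. The experiments did not overlap. Differences were smaller than for Gbx2, at -1.89 (A minus C), 1.26 (A minus B) and 3.14 (C minus B).

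Fgf17, a related ligand of the same region, lay near the filter, with a mean of 98.0 on 1421523_at. It had 58.0 with doxycycline and 38.3 uninduced in A, 156.5 with doxycycline and 256.6 uninduced in C, and 71.1 with doxycycline and 7.4 uninduced in B. C stood above A and B, by a difference of -1.73 for A minus C and 2.18 for C minus B, while A and B overlapped. The C minus B difference was 0.96 over the doxycycline arrays alone and 3.39 over the uninduced arrays alone. Its other probe set, 1456239_at, had a mean of 17.0 and was not tested, and its highest value, 62.9, was also on the uninduced array of C.

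A probe set was counted as different between 2 experiments where their arrays did not overlap and the means differed by over 1 on the log2 scale. Of the 12 probe sets, 2 were higher and 6 lower in A than in C, where 5.9% of all probe sets were higher and 7.7% lower. In A against B 8 were higher and 0 lower, against 5.24% and 5.12% of all probe sets. With an offset of 100 in place of 18.8 the count was 5, without Gbx2, En2 and Fgf8. In C against B 8 were higher and 0 lower, against 7.61% and 5.8%. These 8 include the dim second Fgf17 probe set, 1456239_at, with a mean of 17.0. Among the 9 tested probe sets 7 were higher and 0 lower, against 6.97% and 6.84% of all tested probe sets. A difference of over 4 was seen for 5 of the 9 tested genes in C minus B, namely Otx2, En2, Wnt1, En1 and Gbx2, and 0.204% of tested probe sets exceeded it. In A minus B only Otx2 of the 9 exceeded it, where 0.0148% of tested probe sets did, and in A minus C 0 of the 9 did, where 0.0296% of tested probe sets did. The genes were chosen for this pattern, so nothing is read from the counts beyond their size.

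**Figure D2:**
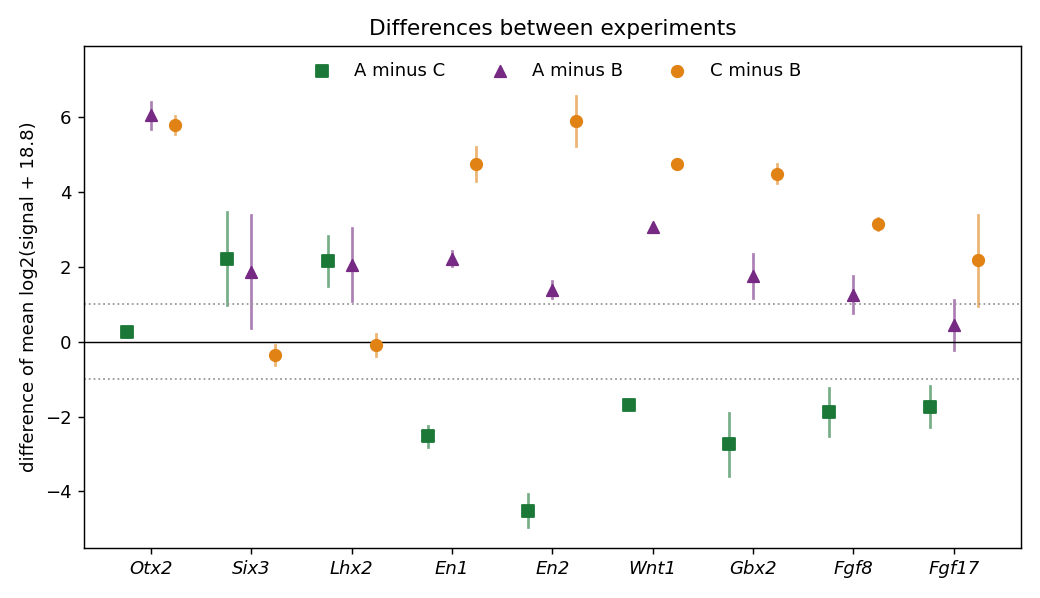
Differences between experiments for each gene (vertical axis, difference of mean log2(signal + 18.8)), as A minus C (squares), A minus B (triangles) and C minus B (circles). Each vertical line spans the value in the doxycycline arrays and the value in the uninduced arrays, and dotted lines mark a difference of 1 in either direction. Otx2 sits near 0 for A minus C, Six3 and Lhx2 are above 0 there, and the other 6 genes are below 0.

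The genes thus fell into 3 patterns over the 6 arrays. Pearson correlations of the log2 signals were 0.97 between Six3 and Lhx2, and 0.84 to 1.00 among Gbx2, En1, En2, Fgf8 and Fgf17. Wnt1 lay between Otx2, with 0.92, and En1, with 0.98. Six3 and Lhx2 correlated with En2 at -0.35 and -0.28, with En1 at -0.14 and -0.05, and with Wnt1 at 0.01 and 0.11. With Otx2 the values were 0.35 and 0.47. The arrays of an experiment share that experiment, so these values describe 3 pairs of arrays and carry no test.

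The comparison the study was designed for, doxycycline against no doxycycline, showed no call on any of the 9 tested genes. With limma, 0 of 27022 probe sets were higher and 0 lower at an adjusted p of 0.05 (0.0% called), and 138 had an unadjusted p under 0.05 (0.511%). None of the 9 genes was among these 138, and each had an adjusted p of 1. With the experiment as a replicate block the genes' adjusted p lay between 0.93 and 0.998, and 0 of them had an unadjusted p under 0.05, where 1065 probe sets (3.94%) did. Otx2 averaged 1785.5 ± 1520.21 with doxycycline and 2283.83 ± 2005.4 uninduced (SD, n = 3 each), and the SDs show the gap between experiments.

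The fit without the experiment counts that gap as spread. Its 95% interval of the doxycycline difference was -4.83 to 4.54 for Otx2, -4.24 to 4.30 for En2, -3.40 to 3.22 for En1 and -3.27 to 3.41 for Wnt1, around estimates of -0.15, 0.03, -0.09 and 0.07. The median distance between estimate and bound was 3.22 for the 9 genes, against 0.81 over all tested probe sets.

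With the experiment as a replicate block the estimates are the same and the intervals narrower, and the median distance for the 9 genes was 0.76. The interval was -0.61 to 0.32 for Otx2, -0.76 to 0.58 for En1, -0.73 to 0.79 for En2 and -0.46 to 0.60 for Wnt1. It was -0.67 to 1.17 for Gbx2, -0.69 to 0.67 for Fgf8 and -0.61 to 1.65 for Fgf17. Six3 and Lhx2, the genes with the largest differences in A, had -1.80 to 0.71 and -1.58 to 0.17. All 9 intervals included 0 in both fits, and any difference within an interval is compatible with the values of these 3 pairs of arrays.

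Within experiments the direction changed from one to another for all 9 genes: 0 of 9 were lower and 0 of 9 higher with doxycycline in 3 of 3 experiments, where 13.2% and 12.8% of tested probe sets were. In C, 8 of 9 genes were lower with doxycycline (48.0% of tested probe sets), with a median of -0.47, and the exception was Six3, at 0.11. In B, 8 of 9 were higher (51.1% of tested probe sets), with a median of 0.25, and the exception was Fgf8, at -0.24. In A, 5 were higher (46.4% of tested probe sets) and 4 lower, with a median of 0.06. Over all tested probe sets the medians were -0.04 in A, 0.02 in C and 0.01 in B.

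In C the isthmus genes had differences of similar size, at -0.70 for En2, -0.65 for Fgf17, -0.58 for En1, -0.54 for Fgf8 and -0.47 for Gbx2, apart from Wnt1 at -0.01. These are differences between 1 doxycycline array and 1 uninduced array, with no replicate. In B the largest were 1.78 for Fgf17, 0.64 for Six3 and 0.63 for En2, on signals of at most 101.0.

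The 2 largest differences with doxycycline were in A. Six3 differed by -2.38 and Lhx2 by -1.79 there on the log2 scale, and 4.92% of tested probe sets were lower in A by over 1. Gbx2 differed by 1.21, Fgf8 by 0.75, Otx2 by -0.47 and Fgf17, on dim signals, by 0.43. Otx2, Six3 and Lhx2 were thus brighter on the uninduced array of A, and Gbx2, Fgf8 and Fgf17 on its doxycycline array. En1, En2 and Wnt1 differed by -0.03, 0.16 and 0.06. That uninduced array has the Actb ratio of 2.88, whose part in these differences was not tested. In C and B the Six3 differences were 0.11 and 0.64 and the Lhx2 differences -0.46 and 0.14.

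**Figure D3:**
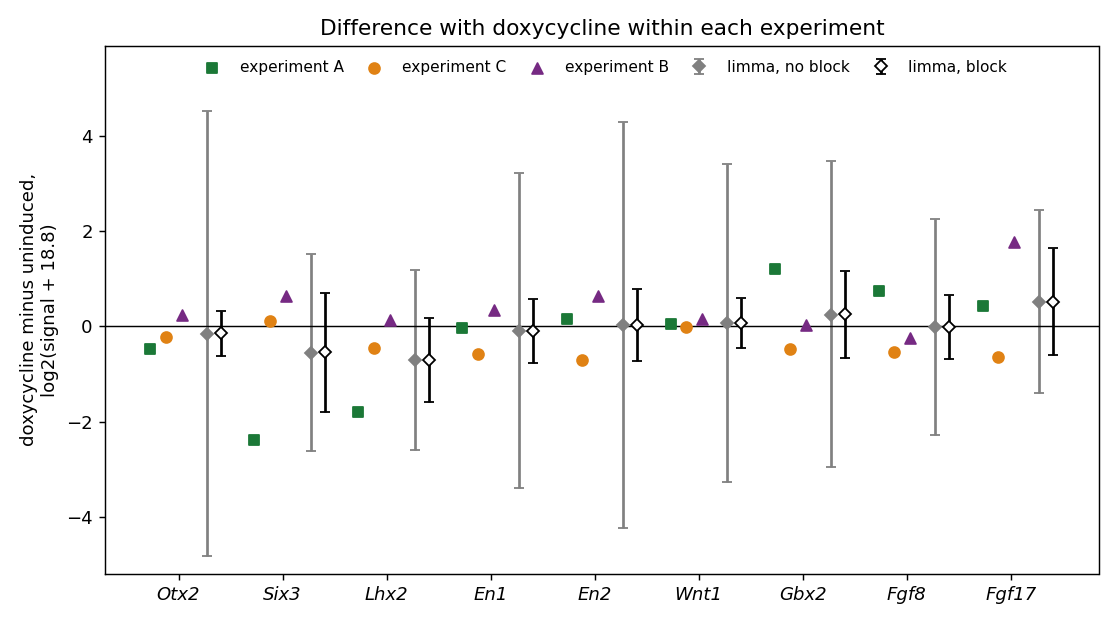
Doxycycline minus uninduced for each gene (vertical axis, log2(signal + 18.8)) within experiment A (squares), C (circles) and B (triangles), beside the limma estimate over the 3 experiments with its 95% interval, without the experiment as a block (grey diamonds) and with it (open black diamonds). Every interval includes 0, the blocked ones are narrower, and no gene has all 3 experiments on 1 side of 0.

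Other genes of the same regions were read from lists. Of 24 other forebrain and midbrain genes 22 were named and 10 tested. In A against C 2 were higher and 3 lower, in A against B 8 were higher and 0 lower, and in C against B 7 were higher and 1 lower. Their median differences were 0.42, 2.46 and 1.70, against 0.01, 0.08 and 0.07 over all tested probe sets. Among tested probe sets 7.64% were higher and 6.38% lower in A against C, 6.35% and 4.88% in A against B, and 6.97% and 6.84% in C against B.

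Otx1, the paralog of Otx2, had 192.5 in A, 650.0 in C and 28.9 in B with doxycycline, and 442.3 in A, 762.6 in C and 12.1 in B uninduced. It shared the low level of Otx2 in B, but unlike Otx2 its A minus C difference was -1.21, with no overlap. Sp8, a zinc finger factor that promotes Fgf8 in the telencephalon, had 283.3 in A, 602.7 in C and 22.7 in B with doxycycline. Uninduced, Sp8 had 201.7 in A, 985.2 in C and 42.9 in B. Emx2, a factor of the dorsal forebrain, had 81.8 in A, 200.8 in C and 4.8 in B with doxycycline, and 314.4 in A, 159.9 in C and 21.2 in B uninduced. Pax6, a factor of forebrain and eye, had 305.5 in A, 283.1 in C and 67.5 in B with doxycycline, and 1016.2 in A, 463.4 in C and 90.6 in B uninduced.

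Emx2 and Pax6 were thus also highest on the uninduced array of A. Chosen after their values were seen, 3 more genes had this shape. Fezf2, a zinc finger factor of the forebrain, had 79.3 in A, 89.2 in C and 43.5 in B with doxycycline, and 561.0 in A, 89.4 in C and 67.2 in B uninduced. Hesx1, a repressor of the anterior neural plate, had 208.2 in A, 92.3 in C and 49.2 in B with doxycycline, and 411.6 in A, 128.3 in C and 5.4 in B uninduced. Tcf7l2, a Wnt effector of the caudal forebrain that many other tissues express, had 546.0 in A, 78.7 in C and 130.7 in B with doxycycline, and 1460.0 in A, 93.9 in C and 125.3 in B uninduced. Lmx1a, a roof plate and midbrain factor that was lower in A than in C at -1.92, and Dlx2, a factor of the ventral forebrain that was lower in C than in B at -1.01, are also named after their values were seen. Over the list 6 of 10 genes were lower with doxycycline in A, with a median of -1.02, and none of the 10 had an adjusted p under 0.05.

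The other isthmus and FGF response genes were more often higher than lower in C. Of 22 listed 21 were named and 18 tested, and 1 was higher and 11 lower in A against C, 3 were higher and 0 lower in A against B, and 12 were higher and 1 lower in C against B. The medians were -1.25, 0.53 and 1.77. Cnpy1, a modulator of FGF signalling at the isthmus in zebrafish, had 60.4 in A, 751.1 in C and 42.1 in B with doxycycline, and 13.1 in A, 1138.0 in C and 2.4 in B uninduced. Its A minus C difference was -4.23 and its C minus B difference 4.72, while A and B overlapped, with an A minus B difference of 0.48 against 1.39 for En2. Spry1, a feedback inhibitor of FGF receptor signalling, had 678.5 in A, 1769.7 in C and 277.0 in B with doxycycline, and 663.4 in A, 2528.8 in C and 320.8 in B uninduced. Lmx1b, a LIM homeodomain factor of the isthmus, and Irx2, an Iroquois factor, were higher in C than in B by 2.89 and 2.83. Genes named from here on in the list were chosen after their values were seen. The FGF feedback inhibitors Dusp6, Il17rd and Spry2 had A minus C differences of -1.58, -1.89 and -1.20, and C minus B differences of 2.05, 2.56 and 1.21. The FGF target Etv5 had -1.02 and 1.24, the ligand Fgf15 had -1.66 and 2.24, and Pax8, a paired box factor of the isthmus and of kidney and ear, had -2.58 and 2.47. The 3 genes higher in A than in B were Lmx1b, Spry1 and the corepressor Tle4. The receptor gene Fgfr3 ran the other way, at 1.52 for A minus C and -2.13 for C minus B.

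Hindbrain genes had no common order. Of 15 listed 11 were named and 10 tested, and in C against B 2 were higher and 2 lower, with a median of 0.33. Egr2, a zinc finger factor of hindbrain segments, had 64.4 in A, 189.0 in C and 33.2 in B with doxycycline, and 48.7 in A, 839.5 in C and 31.1 in B uninduced. Hoxa2 was also higher in C than in B, by 1.27. Hoxb3 and Hoxb2, Hox genes of the hindbrain that other lineages also express, were lower in C than in B, at -2.37 and -1.45. In A against C Egr2 and Hoxa2 were lower, at -2.49 and -2.18, and Fgf3, a ligand of the hindbrain and ear that is named after its values were seen, was higher at 1.17, with a list median of -0.12.

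Neural progenitor markers were higher in C than in B for 10 of 10 genes, with a median of 3.78, and higher in A than in B for 8 of 10, with a median of 2.47. Their summed signal was 7105.9 in A, 29051.8 in C and 1593.0 in B with doxycycline, and 9717.0 in A, 26172.2 in C and 1771.5 in B uninduced. Zic1, a zinc finger factor of the dorsal neural tube, was higher in C than in B by 7.15, Fabp7, a fatty acid binding protein of radial glia, by 5.83, Hes5, a Notch target, by 4.88, and Sox1, a factor of the neural plate, by 4.59. The level of neural progenitor RNA thus moved with the patterning genes across the experiments, and its part in their differences was not tested. The orders were not the same throughout: Six3 and Lhx2 were higher in A than in C and Otx2 overlapped, while the summed progenitor signal was lower in A than in C.

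Markers of other cell types moved too. The 6 blood markers summed to 3390.7 in A, 1446.9 in C and 27190.3 in B with doxycycline, and 621.8 in A, 1714.7 in C and 37364.3 in B uninduced, and the 6 endothelial markers to 1314.9 in A, 273.2 in C and 5261.1 in B with doxycycline, and 507.8 in A, 692.7 in C and 4890.4 in B uninduced. B, the experiment with the lowest signals of Otx2, En1, En2, Wnt1, Gbx2 and Fgf8, thus had the highest blood and endothelial signals: 6 of 6 blood markers were lower in A than in B and 5 of 6 were lower in C than in B, and 6 of 6 endothelial markers were lower in both. Within A, the uninduced array had the lower sums of both lists and the higher Six3 and Lhx2. The 11 endoderm markers summed to 9906.0 in A, 1416.4 in C and 13563.9 in B with doxycycline, and 8144.0 in A, 1200.0 in C and 13961.5 in B uninduced. Ttr, a plasma transport protein of the visceral endoderm, gave much of these sums, with 4214.1 in A and 10701.3 in B with doxycycline, and 3858.0 in A and 11110.3 in B uninduced. By gene, 10 of the 11 were higher and 0 lower in A than in C, 6 were higher and 2 lower in A than in B, and 0 were higher and 5 lower in C than in B, with medians of 1.82, 1.14 and -0.83. Otx2 is also known from the anterior visceral endoderm, Fgf8 from the primitive streak, and Otx2 and Gbx2 from pluripotent cells. The 8 streak and presomitic mesoderm genes tested summed to 2772.7 in A, 1875.9 in C and 1320.4 in B with doxycycline, and 1634.5 in A, 1973.7 in C and 1288.3 in B uninduced. The 7 pluripotent and epiblast genes tested summed to 4983.3 in A, 3349.0 in C and 2750.6 in B with doxycycline. Uninduced, they summed to 6248.3 in A, 3902.9 in C and 2869.1 in B, so the sums of both lists were lowest in B. Single streak genes were divided: 2 were higher in C than in B and 2 lower, Cdx2 and Evx1. In A against B 5 streak genes were higher and 1 lower. Of the pluripotent and epiblast genes 4 were higher and 0 lower in C than in B, and 3 higher and 0 lower in A than in B. Dnmt3b gave much of their sums and had a C minus B difference of -0.03. The part of these cell types in the differences of the patterning genes was not tested.

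**Figure D4:**
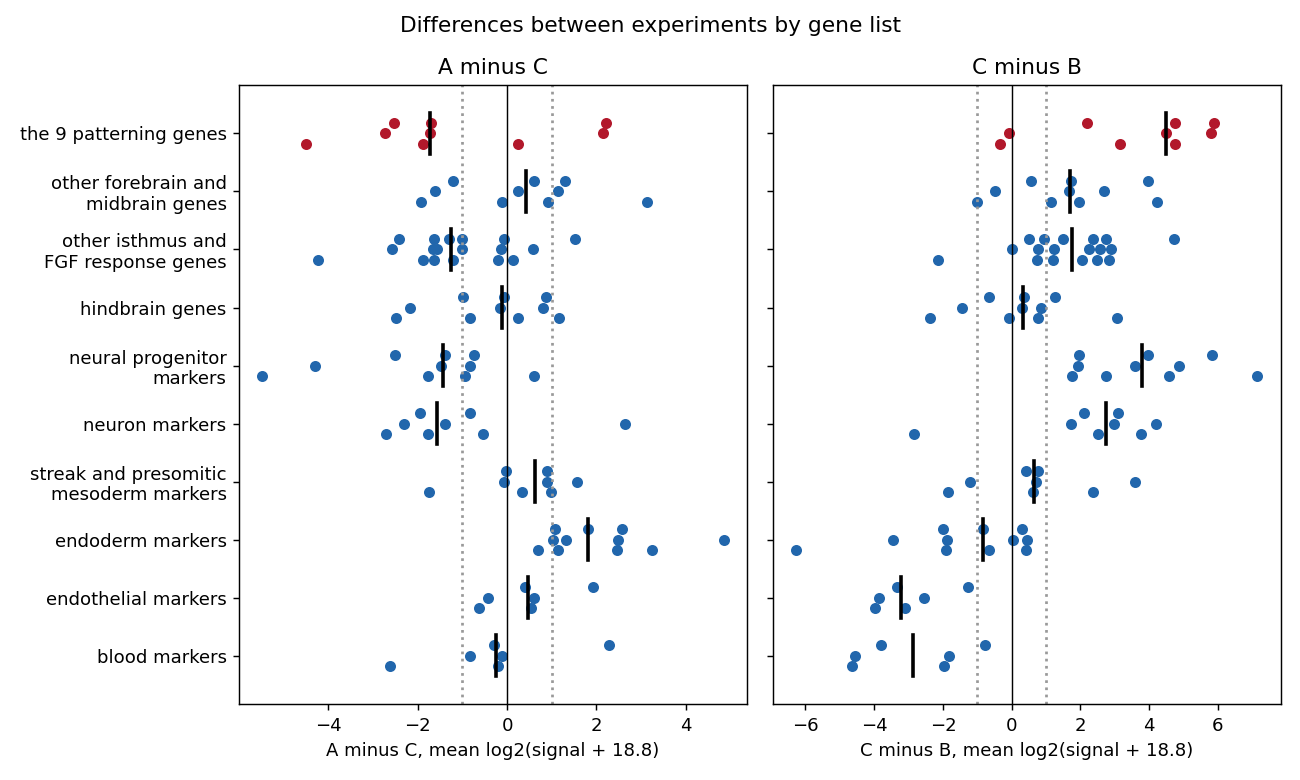
Differences between experiments of the tested genes by list, as A minus C (left panel) and C minus B (right panel), in mean log2(signal + 18.8) on the horizontal axes. Each point is 1 gene, black bars are medians and dotted lines mark a difference of 1. The 10 neural progenitor markers all lie above 0 for C minus B, the 6 endothelial markers all lie below 0 there, and the patterning genes have a median of 4.49.

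Genes with the most similar pattern were sought among 5618 genes whose signal varied by over 1 on the log2 scale, by Pearson correlation over the 6 arrays. For Otx2 they were Shd, Tox3 and Rbx1 (r = 0.997 each), and Tox3 had 2169.9 in A, 2078.7 in C and 325.9 in B with doxycycline, and 2617.2 in A, 1881.8 in C and 278.5 in B uninduced. Gbx2 and Fgf8 were among each other's 3 closest genes, at 0.997. The others closest to Gbx2 were Car3 and Gnb5, and to Fgf8 they were Cpe and Mpst. For En1 the closest were Ddx25, Gpm6a and Btbd17, for En2 Dyrk3, Tnfrsf19 and Asf1b, and for Wnt1 Uchl1, Mkrn1 and Mapk11, with r from 0.993 to 0.998.

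The genes closest to Fgf17 were less alike, at 0.976 to 0.982, and among them was Otx2os1, a transcript named for the strand opposite Otx2. It had 40.1 in A, 112.4 in C and 47.7 in B with doxycycline, and 41.3 in A, 114.3 in C and 10.8 in B uninduced, which is not the shape of Otx2. For Six3 the closest were Mapk1ip1, D5Ertd579e and Zfp467, at 0.985 to 0.988, and for Lhx2 Setd6, Fzd5 and Tnpo3, at 0.992 to 0.996. Fzd5, a Wnt receptor of the eye field, had 476.9 in A, 171.0 in C and 215.4 in B with doxycycline. Uninduced, Fzd5 had 992.9 in A, 217.9 in C and 201.5 in B. The others named for Six3 and Lhx2 were also highest on the uninduced array of A. Their signals there were 1377.3 for Setd6, 3264.2 for Tnpo3, 1165.7 for Mapk1ip1, 2226.9 for D5Ertd579e and 393.1 for Zfp467. With 6 arrays in 3 pairs such high correlations were common. An r over 0.95 was held by 22 genes (0.392%) for Fgf17, 64 (1.14%) for Six3 and up to 216 (3.85%) for Wnt1.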

How the data were processed

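Per the labels' protocols, 4.3 µg of RNA from each of 6 samples was hybridized to Affymetrix mouse genome arrays. The authors deposited 1 linear intensity per probe set and array, credited to MAS5 in the submitters' processing notes, with its version not given in the sources used here. Before deposit the arrays had been scaled, since each had a 2% trimmed mean of 500. Of 45101 probe sets 64 controls were left out. The platform annotation names 1 gene for 34945, with 34741 symbols updated through RefSeq (GRCm38.p6), several genes for 932 and none for 9160.

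From these values log2(signal + 18.8) was taken, the offset being the 20th percentile. A mean under the 40th percentile (60.5) kept a probe set out, and 27022 were tested, 9 of the 12 members among them. A member could pass through the experiment where it was high. The group comparison used limma (version 3.58.1, R 4.3.3; trended empirical Bayes, two-sided), with Benjamini-Hochberg adjusted p under 0.05 over the whole table as the threshold. The fit was tested on simulated data with less spread than the arrays and no differences between experiments. That check does not cover the gaps between experiments seen here. Same-lettered arrays share only a replica letter in the labels. Their deviations from group means correlated at 0.45 (A), 0.66 (C) and 0.67 (B). Arrays of different letters correlated at -0.53 to -0.12, so arrays were paired by letter. The number of arrays limits the precision.

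The members and lists were chosen with earlier results of these data known. Named genes are all member probe sets, the 3 genes most correlated with each, up to 4 genes per list of related regions with the largest C minus B difference, Hoxb4 and the control probe sets. Alternatives were the block, 2 other offsets, 2 other filters, quantile normalization, no trend, the mean over a gene's tested probe sets, and leaving out arrays or experiments. Each of the 9 genes had only 1 tested probe set, so that mean equals the main value by construction. It leaves out the dim probe sets of Six3 and Fgf17. The lists of pluripotent, streak, kidney, otic, neural crest, neuron and cardiac markers were also computed: in C against B they had 4, 2, 2, 2, 3, 7 and 0 genes higher and 0, 2, 1, 0, 2, 1 and 3 lower, of 7, 8, 6, 4, 7, 8 and 6 tested.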

Additional observations from a re-analysis of the deposited data

How the results depend on the processing

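The count of doxycycline calls was 0 over all probe sets and 0 over the 9 genes under every alternative run, the replicate block included, so the block changed no call. The estimates of single genes are small against their spread and turned sign easily: with an offset of 1 En1 was at 0.033, and with an offset of 100 En2 was at -0.141. Leaving out an array or an experiment moved the doxycycline difference between -2.220 and 1.727 for Otx2, -0.771 and 1.640 for Gbx2, -1.360 and 1.244 for En1, -1.522 and 1.949 for En2, -1.254 and 1.355 for Wnt1, -0.717 and 0.960 for Fgf8, -0.235 and 1.462 for Fgf17, -1.138 and 0.596 for Six3, and -1.245 and 0.270 for Lhx2. A fit without 1 array represents the experiments unequally by construction. The count of probe sets different between A and B was 5 with an offset of 100, against 8, since the larger offset shrinks dim values: Gbx2 then differed by 0.678, En2 by 0.513 and Fgf8 by 0.815. For Otx2, C minus B was 6.427 with an offset of 1 and 4.439 with 100, and for En2 7.381 and 4.051. Dim signals without detection calls limit every value in B.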
